A study of Saccharomyces cerevisiae with 46 samples.

Results

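Meiotic DNA double-strand breaks (DSBs) in budding yeast are made by Spo11 at preferred sites called hotspots. Hop1 is a protein of the chromosome axis that promotes break formation, and Pch2 is an AAA+ ATPase that remodels Hop1 and removes it from chromosomes. The chromatin-binding region (CBR) of Hop1 contacts nucleosomes, and the hop1-loop2 allele disrupts that contact. CC-seq (covalent-complex sequencing) maps each break by the DNA end to which Spo11 stays attached, and the rad50S allele blocks removal of Spo11 and repair, so that breaks accumulate.

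The hotspots described here are the 424 of 3569 (11.9%) that gained signal in hop1-loop2. Hotspots were called on the mean CC-seq signal of 4 libraries, 2 of rad50S and 2 of rad50S hop1-loop2. A hotspot counted as gained where its summed signal averaged at least 25 HpM (hits scaled to a total of 1000000 per library) in rad50S hop1-loop2 and at least 3 times the rad50S mean, with both rad50S hop1-loop2 libraries above both rad50S libraries. No hotspot that met the 2 limits was lost to that last condition. The levels of the gained hotspots in these 4 libraries are therefore a description of how they were chosen, and nothing is tested on them.

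All 3 genotypes were diploid SK1 cultures carrying rad50S, collected 6 h after transfer to sporulation medium, with 2 libraries each: rad50S alone; rad50S hop1-loop2; and both alleles with PCH2 deleted as well (rad50S hop1-loop2 pch2). The last 2 are called hop1-loop2 and hop1-loop2 pch2 from here on. Each genotype was 1 strain, and any other difference between the strains cannot be told apart from the named alleles. The strain listing gives the rad50S strain a HIS4::LEU2 recombination construct on chromosome III, which is not in the listed genotype of the hop1-loop2 pch2 strain. The hop1-loop2 strain of the CC-seq libraries is not in that listing, so whether it carries the construct is not known. Genotypes were taken from the sample titles, with which the separate genotype field does not match. Because HpM is a share of the hits in a library, the values say where breaks were and not how many there were, and fewer cells with a break cannot be told apart from fewer breaks per cell.

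The rad50S and hop1-loop2 libraries held 6277735 to 7985420 hits, and 87.9% to 89.4% of these fell in hotspots. The hop1-loop2 pch2 libraries were shallower, with 3614810 and 1026669 hits, and 84.3% and 63.2% of these fell in hotspots. The second of them thus stood apart from the other 5 libraries in depth and in the share of hits outside hotspots. Most shares, ranks, counts of calls and median ratios that rest on it are also given without it or scaled to hits in hotspots.

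Gained hotspots held 4.74% and 3.97% of all hits in the rad50S libraries (mean 4.35% ± 0.548, SD, n = 2). In hop1-loop2 the same intervals held 19.8% and 20.0% (19.9% ± 0.184, SD, n = 2). In hop1-loop2 pch2, whose libraries had no part in the choice, they held 20.6% and 15.7% (18.2% ± 3.50, SD, n = 2). As a share of the hits in hotspots only, a scaling added after seeing the data, they made up 5.30% and 4.52% in rad50S, 22.1% and 22.4% in hop1-loop2 (22.3% ± 0.231, SD, n = 2), and 24.5% and 24.8% in hop1-loop2 pch2 (24.7% ± 0.245, SD, n = 2). The mean of hop1-loop2 pch2 was thus below that of hop1-loop2 as a share of all hits and above it as a share of hits in hotspots, while on both scales the rad50S libraries lay below all 4 others.

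Most gained hotspots were weak in rad50S. Their median mean level was 39.6 HpM there (2.35 to 2309), against 126 HpM for the other hotspots. In hop1-loop2 the order was the other way, with a median of 214 HpM (25.3 to 7738) for gained hotspots and 80.3 HpM for the others. The ratio of the means ran from 3.00 to 46.0, with a median of 4.49. It was under 4 in 171 gained hotspots, at least 5 in 172, at least 10 in 56 and at least 20 in 10.

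**Figure D1:**
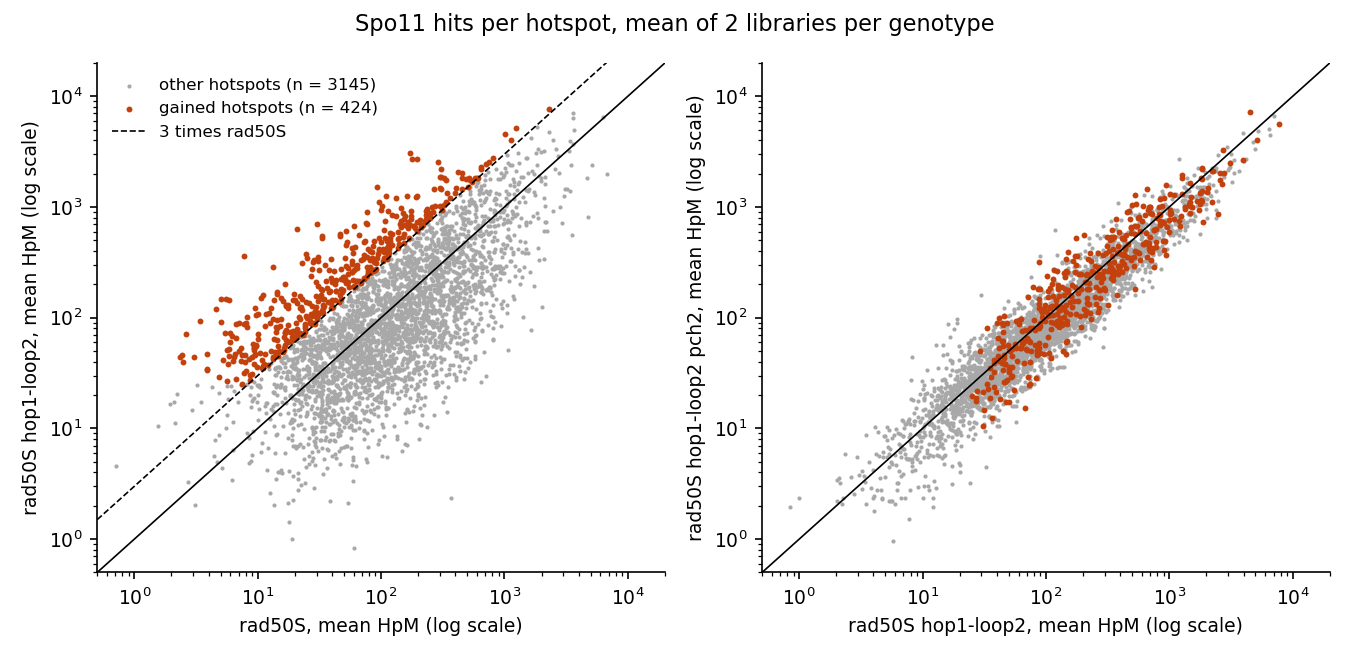
Mean HpM of each hotspot in rad50S against hop1-loop2 (left) and in hop1-loop2 against hop1-loop2 pch2 (right), both axes logarithmic and each point the mean of 2 libraries. The 424 gained hotspots lie on or above the dashed line of 3 times rad50S at left by construction, and lie on both sides of the line of equal values at right.

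None of the gained hotspots was without reads in rad50S. The smallest read number of any gained hotspot in a rad50S library was 13, and 63 of the 424 averaged under 10 HpM in rad50S. When hotspots were called on the rad50S libraries alone, 242 (57.1%) of the gained hotspots overlapped a called one, against 95.5% of the other hotspots. These 242 had a median of 96.1 HpM in rad50S and 445 HpM in hop1-loop2, with a median ratio of 3.97. The other 182, below the calling threshold in rad50S, had medians of 14.1 and 79.4 HpM and a median ratio of 5.69, and included 43 of the 56 with a ratio of at least 10. In the ranking of all hotspots by level, the median gained hotspot stood at percentile 21.0 in rad50S, 72.7 in hop1-loop2 and 76.5 in hop1-loop2 pch2 (76.4 without its second library). Of the 357 strongest hotspots in each genotype, 11, 97 and 110 were gained ones, and 109 without the second hop1-loop2 pch2 library.

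The strongest gained hotspot was chrII:710529-711918 (coordinates on the SK1 assembly ASM205788v1 throughout). It had 2490.4 and 2128 HpM in rad50S, 8011 and 7465 HpM in hop1-loop2, and 5840.1 and 5418 HpM in hop1-loop2 pch2. It was strong already in rad50S, and its ratio of 3.35 was near the lower limit of the rule. Likewise chrIV:1438083-1438684 rose from 1266 and 1197 HpM in rad50S to 5133 and 5179 HpM in hop1-loop2, with 4600 and 3390 HpM in hop1-loop2 pch2.

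Among the 10 gained hotspots with the highest level in hop1-loop2, 4 had ratios above 8 and so came from a much lower rad50S level. At chrXIII:336360-337170 the rad50S libraries had 207 and 137 HpM, the hop1-loop2 libraries 3315 and 2863 HpM, and the hop1-loop2 pch2 libraries 2929 and 2039 HpM. At chrVII:532579-533266 they had 204 and 153 HpM, 2648 and 2761 HpM, and 3783 and 2702 HpM in the same order. At chrV:322804-323265 they had 251 and 139 HpM, 2799 and 2586 HpM, and 1886 and 1342 HpM. The hop1-loop2 libraries were closely matched at all of these sites. The last of the 4, chrXVI:74233-75239, had a ratio of 8.81. The remaining sites of the 10, on chromosomes VIII, X (2 sites) and XIII, had ratios of 3.39 to 4.48. The 10 sites were 462 to 1390 bp wide and lay on 8 chromosomes.

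The largest ratio, 46.0, belonged to chrIII:125654-126087. Its rad50S libraries held 10.995 and 4.62 HpM, its hop1-loop2 libraries 363 and 356 HpM, and its hop1-loop2 pch2 libraries 634 and 441 HpM. Next came chrIV:464920-465141, with 21.9 and 19.9 HpM, 588 and 690 HpM, and 1000.05 and 679 HpM. The third was chrIV:466110-466270, about 1 kb away, with 4.79 and 5.28 HpM, 134 and 159 HpM, and 302 and 229 HpM. All 3 were also higher in both hop1-loop2 pch2 libraries than in both rad50S libraries. The sites were picked for ratios over these same rad50S values, which favours that order. It was seen at 97.2% of all gained hotspots.

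The 10 largest ratios, from 21.5 to 46.0, came from few places. On chromosome III, 3 intervals, at 119292-119392, 121811-121964 and 125654-126087, lay within 6.80 kb. Another 3 lay on chromosome IV between 458715 and 466270, and 2 lay 2.23 kb apart on chromosome X, at 443439-443590 and 445823-446280. The other 2 were chrVII:530909-531076 and chrIV:1391175-1391385, each inside a cluster described below. These sites were 101 to 458 bp wide. Hence strong ratios ran together along the chromosome, a pattern seen throughout the gained hotspots.

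Of the 424 gained hotspots, 346 (81.6%) had another gained hotspot within 5 kb, against 425 of 3145 other hotspots (13.5%). Considering neighbours in order along the chromosome, 338 (79.7%) stood next to another gained hotspot and 140 had one on both sides, against 10.7% of the others with a gained neighbour. The median gap to the nearest gained hotspot was 1.07 kb. Joining gained hotspots no more than 5 kb apart gave 78 single ones and 105 clusters, of which 17 held 5 or more members and together 117 hotspots (27.6%). No test is given for this clustering, because neighbours share the contrast from which they were chosen.

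Size of the cluster and strength of the gain went together. Single gained hotspots had a median ratio of 3.49, and none of the 78 reached 10. In clusters of 2 to 4 the median was 4.24 and 12 of 229 (5.24%) reached 10. In clusters of 5 or more the median was 8.59 and 44 of 117 (37.6%) did so. The single ones were the stronger sites in rad50S, with a median of 58.8 HpM against 22.7 HpM in the large clusters, and were also wider (medians of 309.5 against 207 bp).

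The cluster with the most members was chrXIV:621396-652541, 31.1 kb with 14 gained hotspots out of 16. Its members summed to 893 and 735 HpM in rad50S (814 ± 112, SD, n = 2), 4310 and 5127 HpM in hop1-loop2 (4718 ± 578) and 7886 and 5906 HpM in hop1-loop2 pch2 (6896 ± 1399). The member ratios in hop1-loop2 over rad50S spanned 3.28 to 19.0. Both hop1-loop2 pch2 sums were above both hop1-loop2 sums. The strongest member in hop1-loop2 was chrXIV:651133-651398, with 197 and 125 HpM in rad50S, 1214 and 1321 HpM in hop1-loop2, and 2039 and 1644 HpM in hop1-loop2 pch2. The largest ratio was at the narrow chrXIV:635491-635578, with 2.98 and 1.72 HpM, 28.2 and 61.0 HpM, and 78.0 and 93.5 HpM, where the hop1-loop2 libraries differed by more than a factor of 2. One of the 2 hotspots in this span that were not gained, chrXIV:642488-642547, missed only the level limit. It had 2.98 and 3.43 HpM in rad50S, 22.3 and 27.6 HpM in hop1-loop2, and 59.2 and 66.2 HpM in hop1-loop2 pch2.

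On chromosome XV, all 9 hotspots between 348668 and 373221 were gained. They summed to 225 and 227 HpM in rad50S, 1611 and 1707 HpM in hop1-loop2, and 1902 and 1174 HpM in hop1-loop2 pch2, so that the last 2 genotypes overlapped. The strongest, chrXV:358784-359082, went from 48.4 and 56.2 HpM in rad50S to 483 and 432 HpM in hop1-loop2, and had 470.01 and 236 HpM in hop1-loop2 pch2. Ratios in this cluster ran from 3.38 to 12.9, the latter at chrXV:361670-361833. Here the first hop1-loop2 pch2 library was at or above the hop1-loop2 level at several sites and the second was below it at most of them.

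All 8 hotspots of chrVII:526315-537118 were gained too, with sums of 457 and 380 HpM in rad50S, 5272 and 5513 HpM in hop1-loop2, and 8089.5 and 5763 HpM in hop1-loop2 pch2. The ratio of the sums was 12.9, against 5.79 in the chromosome XIV cluster. The member with the most signal was chrVII:532579-533266, and the highest ratio, 25.0, was at chrVII:530909-531076, where 7.11 and 4.49 HpM in rad50S stood against 157 and 132 HpM in hop1-loop2. This last site was higher still in hop1-loop2 pch2, at 402 and 279 HpM.

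The longest unbroken runs of gained hotspots were 14 in a row over chrIII:96199-131417 (35.2 kb), 13 over chrVII:510264-537118, 11 over chrIV:442777-472666 and 9 in the chromosome XV cluster. The chromosome III run fell into 2 of the clusters. Its first 8 hotspots, up to 106196, summed to 282 and 164 HpM in rad50S, 2214 and 2289 HpM in hop1-loop2 and 3935 and 3006 HpM in hop1-loop2 pch2. Its last 6, from 116899, summed to only 50.4 and 36.8 HpM in rad50S and reached 842 and 1000.07 HpM in hop1-loop2, a ratio of 21.1. With gaps of up to 20 kb allowed, 6 domains of 10 or more members held 96 gained hotspots, and the largest, chrIV:422401-558650, held 28 of the 45 hotspots in 136 kb. The position of the HIS4::LEU2 construct relative to the chromosome III run was not determined.

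**Figure D2:**
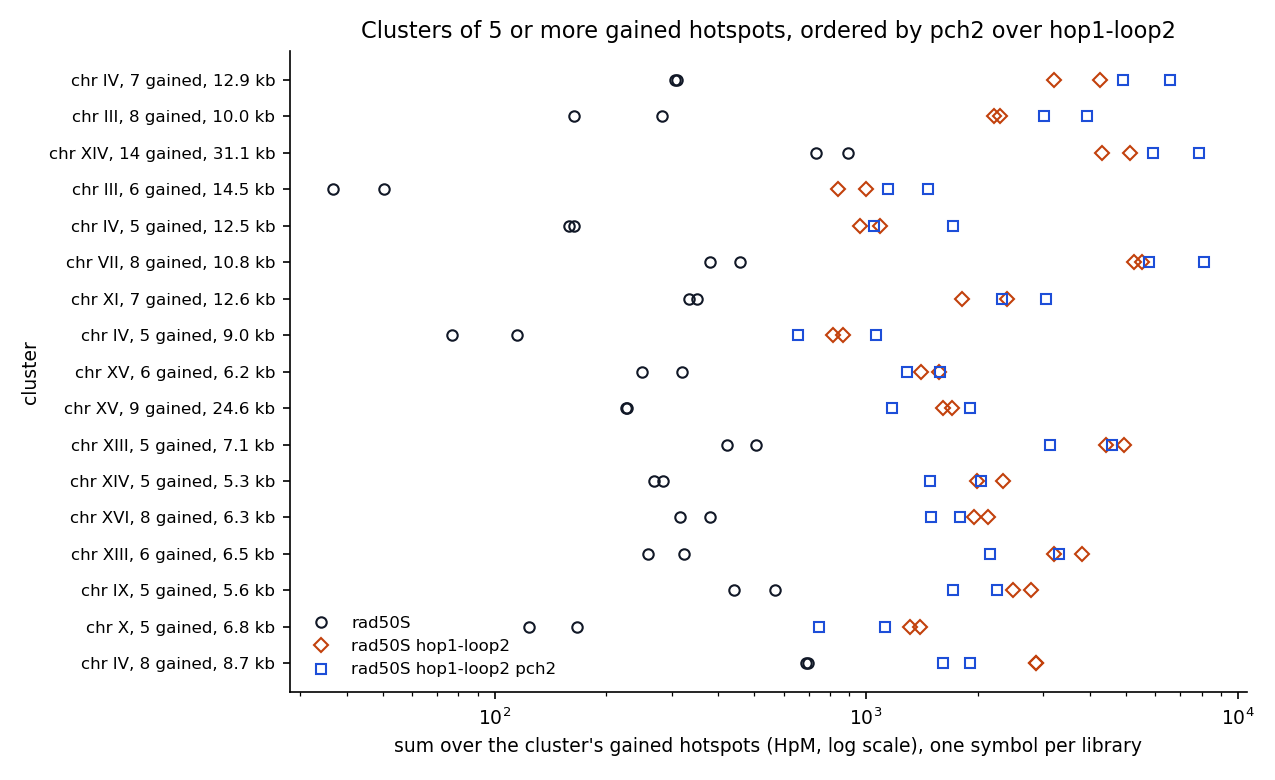
Summed HpM (logarithmic axis) of the gained hotspots in each of the 17 clusters with 5 or more members, with 1 symbol for each library of rad50S, hop1-loop2 and hop1-loop2 pch2. In every cluster the rad50S circles lie below all other symbols, and from bottom to top the hop1-loop2 pch2 squares pass from below to above the hop1-loop2 diamonds.

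Gained hotspots were unevenly spread over the chromosomes. Chromosome I had none among 67 hotspots and chromosome VI had 1 of 98 (1.02%). Chromosome III, also short, had 18 of 83 (21.7%), the highest share, followed by chromosome XIV with 44 of 267 (16.5%) and chromosome IV with 75 of 467 (16.1%). The other 11 chromosomes had 8.13% to 13.4%. On chromosome III, 14 of the 18 gained hotspots belonged to the single run described above. The hotspots of chromosomes I and VI that were not gained had median ratios of hop1-loop2 over rad50S of 0.319 and 0.398, the lowest of the 16 chromosomes.

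**Figure D3:**
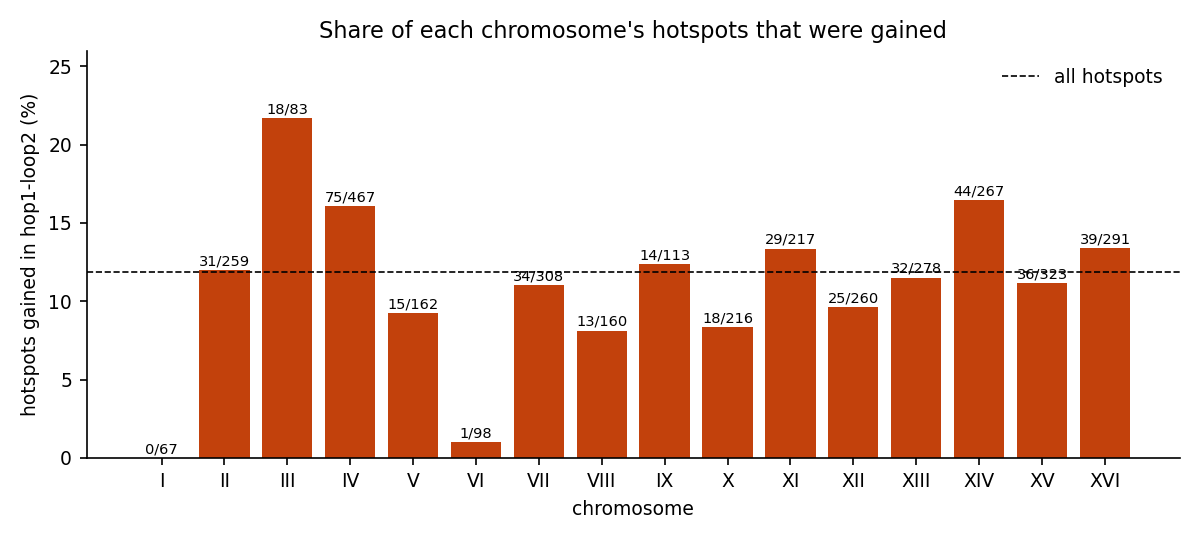
Percentage of the hotspots of each chromosome that were gained in hop1-loop2, with the counts above the bars and a dashed line at the share of all hotspots (11.9%). Chromosomes I and VI have almost none and chromosome III the highest share (21.7%).

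Hop1 binding per chromosome is given beside these shares from SNP-ChIP, a ChIP-seq against a spike-in of another yeast strain whose reads differ by sequence, in strains with RAD50 intact at 3 h. Counts of 1 ChIP and 1 input library per genotype were used, and the other spike-in sets of the series were not analysed here. The values therefore have no replicate error and no test, and the intervals cover counting error only, since PCR reads are not independent molecules. Across the nuclear genome Hop1 in hop1-loop2 was 59.6% of wild type (95% interval 59.0% to 60.3%). It was lowest on chromosomes III (40.2%, 37.6% to 43.1%), I (40.3%, 37.2% to 43.6%) and VI (43.0%, 40.4% to 45.8%), and highest on chromosome IV (70.9%, 68.9% to 73.0%). Chromosomes I, III and VI thus kept alike fractions of their wild-type Hop1 signal and had gained shares of 0%, 21.7% and 1.02%.

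Toward the chromosome ends gained hotspots were scarce. None lay within 20 kb of the outermost hit of a chromosome, where 61 (1.71%) of all hotspots lay. Within 50 kb there were 16 (3.77%), against 267 (7.48%) of all hotspots. The median distance to the nearer end was 264 kb for gained hotspots and 213 kb for all. Centromeres and genes were not placed on this assembly here.

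Hotspots near a gained one also shifted upward without reaching the limits of the rule. Among the hotspots that were not gained, the median log2 ratio of hop1-loop2 over rad50S was 1.18 for the 89 within 1 kb of a gained hotspot, with 98.9% of them higher in hop1-loop2. It was 0.88 at 1 to 2 kb, 0.61 at 2 to 5 kb and -0.07 at 5 to 10 kb. Farther away it fell further, to -0.37 at 10 to 20 kb, -0.62 at 20 to 50 kb and -1.03 for the 766 beyond 50 kb, of which 22.7% were higher. Because hotspots at 3-fold or above were taken out by the rule, the values of the near classes have a ceiling. The same distance classes differed little in hop1-loop2 pch2 over hop1-loop2, with medians between -0.44 and -0.22. Scaled to hits in hotspots they were between -0.16 and 0.06, and without the second hop1-loop2 pch2 library between -0.25 and -0.017.

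**Figure D4:**
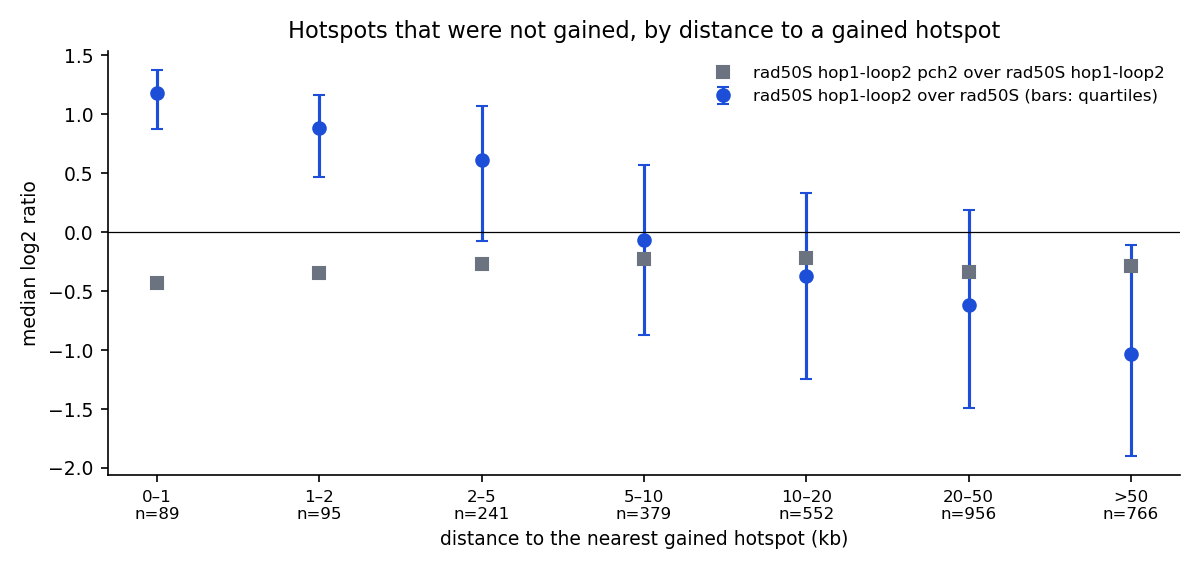
Median log2 ratio, with quartiles as bars for the circles, of the hotspots that were not gained, against distance to the nearest gained hotspot in kb, with the number of hotspots under each class. Hop1-loop2 over rad50S falls from 1.18 within 1 kb to -1.03 beyond 50 kb, while hop1-loop2 pch2 over hop1-loop2 stays between -0.44 and -0.22; hotspots of chromosome I have no gained hotspot and are left out.

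The DNA between hotspots followed the same order. At 500 to 2500 bp from gained hotspots and outside any hotspot, the density was 3.15 HpM per kb ± 0.522 in rad50S and 10.1 ± 0.0898 in hop1-loop2 (SD, n = 2). Relative to the density outside hotspots elsewhere in the same library, it was 0.528 and 0.580 in rad50S, 1.71 and 1.77 in hop1-loop2, and 1.68 and 1.15 in hop1-loop2 pch2. In both genotypes with the hop1-loop2 allele the flanks were thus denser than other DNA outside hotspots, and in rad50S they were sparser. The lower value of the second hop1-loop2 pch2 library stands beside its larger share of hits outside hotspots, whose part in it was not tested.

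In width, gained hotspots were 29 to 1657 bp, with a median of 223 bp and quartiles of 142 and 373 bp, against a median of 203 bp for the others. Width depends on signal, since calling uses a fixed threshold. Among hotspots averaging under 50 HpM over the 4 libraries the medians were 99 bp for gained and 96 bp for other hotspots, at 50 to 200 HpM 203 and 193 bp, and at 200 HpM or more 457.5 and 385 bp. Widths of at least 500 bp were found in 74 (17.5%) of the gained and in 9.57% of the other hotspots. The difference in width lay chiefly among strong hotspots.

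The shape of the gained hotspots changed little as they rose. In the 260 with at least 100 reads in each of the 6 libraries, the span holding the central 80% of hits had a median of 154 and 154 bp in rad50S, 155.5 and 159 bp in hop1-loop2, and 162 and 154 bp in hop1-loop2 pch2. In the 327 with at least 100 reads in each rad50S and hop1-loop2 library, the centre of the hits moved by a median of 5.33 bp between rad50S and hop1-loop2, against 2.72 bp between the 2 hop1-loop2 libraries, and by more than 50 bp in 6 hotspots. Averaged around the centres, the profile of gained hotspots was 160 bp wide at 50% of its height in each rad50S and hop1-loop2 library and 140 and 150 bp in hop1-loop2 pch2, while its peak was 0.374 and 0.318 HpM per bp in rad50S, 1.69 and 1.72 in hop1-loop2, and 1.91 and 1.42 in hop1-loop2 pch2. Watson hits made up a median of 49.1% to 50.8% in the 6 libraries, which does not describe single hotspots. At chrXV:361670-361833 Watson hits were 95.7% and 89.5% in rad50S and 88.3% and 92.7% in hop1-loop2. At chrIV:1391175-1391385 they were 26% and 17.1% in rad50S and 17.7% and 13.3% in hop1-loop2.

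**Figure D5:**
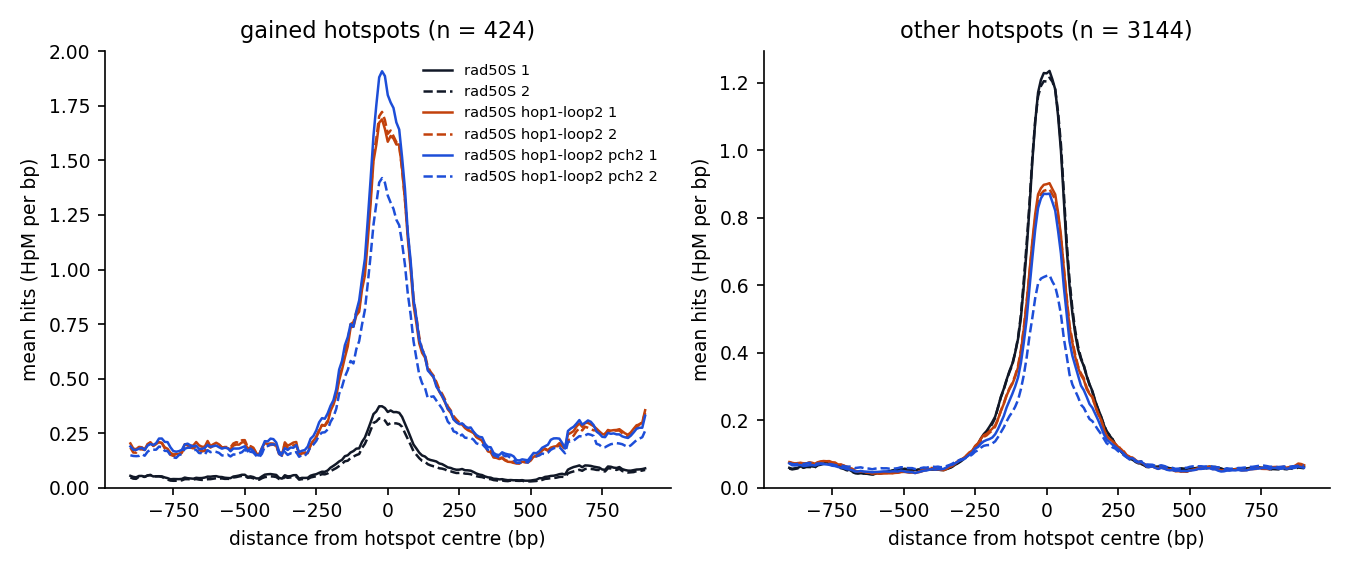
Mean HpM per bp against distance from the hotspot centre (bp) for gained (left) and other (right) hotspots, 1 line per library, solid for replicate 1 and dashed for replicate 2. At gained hotspots the rad50S peaks (0.374 and 0.318) lie far below the 4 others (1.42 to 1.91), and at other hotspots the rad50S peaks are the highest; the vertical scales differ.

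How alike the replicates were can be described by applying the level and ratio limits to 1 pair of libraries and reading the other pair. The 4 libraries are those of the rule and set the hotspot intervals together, so these counts are no independent support for the gain. Of 379 hotspots that met the limits in the first replicates, all 379 were higher in the second hop1-loop2 library than in the second rad50S library, and 363 (95.8%) were at least 3-fold higher, against 13.3% of all hotspots. Chosen on the second replicates there were 452, all higher in the first replicates, with 361 (79.9%) at least 3-fold higher, against 11.01%. The 359 hotspots on both lists were 94.7% of the first list and 79.4% of the second, and all belonged to the 424. Just inside the ratio limit were chrXI:286749-286882 and chrXII:199015-199178, both at 3.00. Just outside were chrXIII:105450-105525 and chrII:572968-573325, both at 2.99. At the level limit, chrIV:952888-952944 (25.3 HpM) and chrXIII:745626-745701 (26.9 HpM) were inside, and chrXIV:14132-14182 (24.96 HpM) and chrXIV:642488-642547 (24.93 HpM) were outside.

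Part of the gain was repeated hits at the same base. Counting each position of each strand once per library, the ratio of hop1-loop2 over rad50S at the gained hotspots had a median of 1.82 (1.34 to 7.29). It stayed above 1 at all 424, and was at least 1.5 at 381 and at least 3 at 37. This count drops repeated breaks at a base together with copied reads, and these cannot be told apart in these files. It has a ceiling set by hotspot width, so ratios at strong sites can be compressed (1.35 against 3.35 at chrII:710529-711918). It also depends on depth, with 190943 such positions in the second hop1-loop2 pch2 library and 992436 in the second hop1-loop2 library.

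The hop1-loop2 pch2 libraries allow the gained hotspots to be read in samples that the rule did not use. Both comparisons still share libraries with the rule: hotspots chosen for high values in hop1-loop2 tend to look lower in any other library, and those chosen for low values in rad50S tend to look higher. Single hotspots were tested with limma on log2(HpM + 1) over all 3569, with Benjamini-Hochberg adjustment at 0.05.

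Against rad50S, most gained hotspots were also higher in hop1-loop2 pch2, but the rad50S values are those the rule used. The shares over all hotspots are no matched background, since those were not chosen for low rad50S values. Of the 424 gained hotspots, all but 23 (94.6%) were higher in hop1-loop2 pch2 and 0 were lower, where 21.3% of all hotspots were higher and 43.9% lower. The median log2 ratio was 2.00 at gained hotspots and -0.75 at the others. Both hop1-loop2 pch2 libraries were above both rad50S libraries at 412 (97.2%) of the gained hotspots, against 27.8% of all, and below both at 0, against 54% of all. When hotspots were called on the hop1-loop2 pch2 libraries alone, 416 (98.1%) of the gained ones overlapped a called hotspot, against 81.8% of the others. Scaled to hits in hotspots, 412 of the gained and 1056 of all hotspots were called higher. Without the second hop1-loop2 pch2 library the median log2 ratio was 2.22 at gained and -0.52 at other hotspots. Without the first it was 1.77 and -0.97.

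Between hop1-loop2 and hop1-loop2 pch2, gained hotspots moved in both directions. With limma, 41 were lower in hop1-loop2 pch2, near the background of 11.9% of all hotspots, and 24 were higher, where the background was 2.8%. Their median log2 ratio was -0.19, against -0.32 for the other hotspots and -0.30 for all, and 10% lay below -0.92 and 10% above 0.69. This comparison depended on scaling. With each library scaled to its hits in hotspots, the median over all hotspots moved to -0.015 and that of the gained ones to 0.10. The calls became 38 lower and 95 higher, where 390 and 414 of all 3569 hotspots were called. Without the second hop1-loop2 pch2 library the medians were -0.08 for the other hotspots and 0.015 for the gained ones. Without the first they were -0.52 and -0.42. Without the first hop1-loop2 library the medians were -0.29 for the other hotspots and -0.19 for the gained ones, and without the second -0.35 and -0.21. Leaving out either hop1-loop2 library left few calls among all hotspots, gained or not. The quasi-likelihood test of edgeR used whole reads recovered from the HpM values (100% of values came out whole within 0.01 reads). It called 834 hotspots, 410 lower and 424 higher, of which 43 and 100 were gained ones. Under all of these scalings the median of the gained hotspots lay above that of the others (with edgeR, 0.09 against -0.03).

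The ranges of the libraries show the same spread. Both hop1-loop2 pch2 libraries were above both hop1-loop2 libraries at 95 (22.4%) of the gained hotspots, against 16% of all, and below both at 175 (41.3%), against 45%. Scaled to hits in hotspots, 175 (41.3%) were above and 129 (30.4%) below, against 31.3% and 31.7% of all. With 2 libraries against 2, an exact permutation test on a single hotspot cannot give a p below 0.333.

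The gained hotspot with the largest rise in hop1-loop2 pch2 was chrXII:471621-471761, at 31.8 and 25.6 HpM in rad50S, 83.0 and 94.4 HpM in hop1-loop2, and 361 and 273 HpM in hop1-loop2 pch2 (log2 difference 1.82 ± 0.253, SE, adjusted p from limma 0.0072). Second was chrVIII:113863-114054, at 52.5 and 33.9 HpM, 169 and 180.5 HpM, and 556 and 488 HpM (1.57 ± 0.257, adjusted p from limma 0.0091). At both sites rad50S was lowest and hop1-loop2 pch2 highest, without overlap. That order follows from the rule and from picking the highest ratios of hop1-loop2 pch2 over hop1-loop2. The next were chrIX:376531-376823, chrXIV:634145-634316 inside the large chromosome XIV cluster, and chrXII:481383-482153, whose levels in hop1-loop2 pch2 were 2.72, 2.63 and 2.47 times those in hop1-loop2.

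At the other end, chrII:155882-156005 had 24.8 and 14.3 HpM in rad50S, 78.2 and 56.1 HpM in hop1-loop2, and 19.6 and 10.7 HpM in hop1-loop2 pch2 (log2 difference -2.11 ± 0.404, SE, adjusted p from limma 0.013). Its gain was not seen in hop1-loop2 pch2, where both libraries lay near or below the rad50S values, on only 71 and 11 reads. The hotspot chrVII:158573-158927 had 45.0 and 40.0 HpM, 144 and 147 HpM, and 54.8 and 39.0 HpM in the same order (-1.64 ± 0.260, adjusted p from limma 0.0085). In contrast, chrXIII:596370-596508 kept part of its gain, with 6.08 and 5.81 HpM, 75.03 and 71.6 HpM, and 32.9 and 16.6 HpM. The last 2 values rest on 119 and 17 reads. The 2 other sites with the lowest ratios, chrIII:300676-300729 and chrXV:94193-94265, had fewer than 10 reads in the second hop1-loop2 pch2 library and adjusted p from limma of 0.13 and 0.073.

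Whole clusters differed in how they read in hop1-loop2 pch2. Of the 17 clusters with 5 or more members, 5 had sums above both hop1-loop2 libraries in both hop1-loop2 pch2 libraries and 4 had sums below both. Scaled to hits in hotspots, 9 were above and 3 below, a scaling added after seeing the data, and the same 5 and 3 of the 4 kept their side. Those above on both scales were the chromosome XIV and VII clusters, both clusters of the chromosome III run and chrIV:453390-466270, with 1.28 to 1.55 times the hop1-loop2 sum in HpM. Those below on both scales were chrIV:1389498-1398233, chrIX:228680-234233 and chrX:123415-130233, at 0.614, 0.754 and 0.690 times.

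A pair of clusters with 8 members each, picked after their values were seen, shows the contrast. In chrIII:96199-106196, all 8 members were above in both hop1-loop2 pch2 libraries, with a sum of 3471 HpM ± 657 against 2252 ± 53.1 in hop1-loop2 and 223 ± 83.5 in rad50S (SD, n = 2). In chrIV:1389498-1398233, 7 of the 8 members were below, with 1759 ± 205 HpM against 2864 ± 11.8 and 694 ± 4.14. Over all hotspots 16% were above and 45% below in HpM, and members of a cluster are not independent. Scaled to hits in hotspots, the sums in hop1-loop2 pch2 were 1.87 and 0.750 times those in hop1-loop2. Hotspots within 20 kb that were not gained had median log2 ratios of hop1-loop2 pch2 over hop1-loop2 of 0.95 (6 hotspots) around the first cluster and -0.27 (7 hotspots) around the second. Of the 16 clusters of 5 or more with such neighbours, 12 had member and neighbour medians of the same sign. Around the chromosome XIV and VII clusters the signs differed, with member medians of 0.51 and 0.32 and neighbour medians of -0.11 and -0.06. These medians and signs are in HpM only. In HpM the median over all hotspots was -0.30, so a negative median is not particular to the surroundings of a cluster. Scaled to hits in hotspots the median over all hotspots was -0.015, and the signs around the clusters were not determined on that scale. By cluster size, the median log2 ratio was -0.41 for single gained hotspots, -0.24 in clusters of 2 to 4 and 0.06 in clusters of 5 or more. Scaled to hits in hotspots these were -0.12, 0.05 and 0.35, and without the second hop1-loop2 pch2 library -0.10, -0.03 and 0.37, in the same order of cluster sizes.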

How the data were processed

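CC-seq reads had been mapped by the authors (TermMapper, which runs Bowtie2; SK1 assembly ASM205788v1), and the authors deposited HpM values, an RPM unit, for each position and strand of each library. SNP-ChIP files hold counts deposited by the authors for every SK1 and S288c chromosome. The SK1 to S288c ratio of ChIP was normalised to the same ratio of input. The wild-type set was the one whose title pairs it with hop1-loop2. Watson and Crick HpM were summed, averaged over the 4 libraries and smoothed with a Hann window of about 200 bp. Hotspots exceeded 0.2 HpM per bp over at least 25 bp, and gaps under 200 bp were merged. limma 3.58.1 (trend) was fitted to log2(HpM + 1), and recovered reads were tested with edgeR 4.0.16 (TMM) and DESeq2 1.42.0 for comparison (R 4.3.3, Python 3.11.15, numpy 2.4.6, pandas 2.3.3, scipy 1.17.1). Other alternatives covered thresholds, ratio and level limits, smoothing, the libraries used for calling, pseudocounts of 0.1 and 10 HpM, low hotspots, scaling, single counting of positions and leaving out each library.

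Named hotspots were the 10 with the highest hop1-loop2 mean, the 10 with the highest ratio, members of the 3 largest clusters, the 5 highest and 5 lowest in hop1-loop2 pch2 over hop1-loop2, and those nearest each limit. A few further clusters and runs were named after their values were seen. The members, lists and tests were chosen with earlier results of these data known. The reference genome supplied is of another assembly and was not used. Replicate libraries of rad50S and hop1-loop2 are described as independent biological replicates. This was not stated for hop1-loop2 pch2, where p-values measure the spread between these libraries.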

Additional observations from a re-analysis of the deposited data

How the results depend on the processing

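The number of gained hotspots moved with the limits set for them: 732 with a ratio of at least 2, 253 with at least 4, and 78 with positions of each strand counted once. The share with another gained hotspot within 5 kb was 86.5% with a ratio of at least 2, 72.7% with a hotspot threshold of 0.4 HpM per bp, 75.6% with the Hann window doubled, and 69.2% with positions counted once. The median width was 256.5 bp and 195 bp with thresholds of 0.1 and 0.4 HpM per bp, 238 bp with a mean of at least 50 HpM, 317 bp with the Hann window doubled, 247.5 bp and 233 bp when hotspots were called on hop1-loop2 alone or on all 6 libraries, and 170 bp with positions counted once. Of these, the wider window and the lower threshold widen intervals by construction, and the higher threshold narrows them. The limit of 50 HpM leaves out weak hotspots, and gained ones averaging under 50 HpM over the 4 libraries had a median of 99 bp. For the others the cause was not tested.

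For hop1-loop2 pch2 against hop1-loop2, the number of gained hotspots called lower was 0 with positions counted once (98 at an unadjusted p under 0.05 in either direction) and 0 to 165 when 1 library was left out, with 15 without either rad50S library, which adds only to the estimate of spread. Leaving out a library leaves 1 in its group, assumed to vary like the others. With positions counted once, 0 of all 3569 hotspots were called in either direction. The upper end came without the first hop1-loop2 pch2 library, where the median log2 ratio was -0.42 at gained and -0.52 at other hotspots. Calls over all hotspots rose and fell with those among the gained ones. The range is therefore no result particular to the gained hotspots. The median log2 ratio changed sign, to 0.10 scaled to hits in hotspots, 0.025 with positions counted once and 0.015 without the second hop1-loop2 pch2 library, over a leave-one-out range of -0.42 to 0.015. DESeq2 called 42 lower and 112 higher, where 404 and 503 of all hotspots were called. Setting the median change to 0 gave 46 and 76, where 466 and 355 of all hotspots were called. Over all hotspots, calls numbered 523 in the main fit, 834 with edgeR, 907 with DESeq2 and 804 scaled to hits in hotspots. Against rad50S the median log2 ratio was 1.77 with a pseudocount of 10 HpM and 2.28 scaled to hits in hotspots. It was 0.89 with positions counted once and 1.77 to 2.22 with 1 library left out. The number of gained hotspots called higher was lowest with positions counted once (294, with 489 over all hotspots). It was highest with edgeR and DESeq2 (419 in both, with 1223 and 1215 over all hotspots). Clusters of 5 or more above in both hop1-loop2 pch2 libraries numbered 9 scaled to hits in hotspots. Replicate numbers are not stated to mark shared batches, and deviations of same-numbered libraries correlated at 0.31, 0.085 and 0.11. With the replicate block, 58 gained hotspots were lower in hop1-loop2 pch2 than in hop1-loop2, 28 were higher, and 404 were higher than in rad50S. Over all hotspots these counts were 557, 133 and 798. The second hop1-loop2 pch2 library, at 1026669 hits, gives 0.974 HpM per read and limits weak hotspots most.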
